A study of Rattus norvegicus with 54 samples.

Results

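Cbs, cystathionine beta-synthase, and 7 other enzymes of transsulfuration and the methionine and folate cycles were measured in the nucleus accumbens of rats, a striatal region of reward and motivation. The 8 genes are Cbs, Cth, Mat2a, Ahcy, Mtr, Shmt1, Shmt2 and Mthfd1, taken by name from 45785 named genes of a bulk RNA-seq count table, and all 8 passed the filter on low counts in each fit. Cbs was picked for its values in the comparisons of adult with adolescent controls and of prenatally ethanol-exposed with control adolescents. In those comparisons its values are a description and carry no test. The other 7 were picked for their place in the pathway.

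All rats were of the Long Evans strain, and the 54 libraries form 8 groups. Ethanol before birth is abbreviated PAE, a prenatal free-choice liquid diet FCL, water in adolescence VEH and alcohol in adolescence AAE. The FCL-VEH animals are the controls. Adolescents, sampled on postnatal day 42 (P42) and 24 h past their final adolescent treatment, gave 9 control and 9 PAE-VEH male libraries beside 7 control and 4 PAE-VEH female ones. Adults of P90 gave 6 control and 6 PAE-AAE male libraries beside 8 control and 5 PAE-AAE female ones. Adult exposed rats had had ethanol both before birth and in adolescence, and which of these a difference belongs to cannot be told apart. Age at sampling and time since the last adolescent treatment cannot be told apart either.

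Named genes received 58.8 to 103.5 M counts per library, with a median of 72.2 M. The 12 markers of medium spiny neurons, the main neurons of this tissue, were all detected and summed to between 2405 and 9037 CPM, the counts of a gene after each library is scaled to the same total. Xist and Y-linked counts went against the labelled sex in 3 libraries, all at P42: male control replicate 8, female control replicate 5 and male PAE-VEH replicate 5. They stayed in their labelled groups, and the differences and relations of the 8 genes that they enter are also given without them, while the rankings and marker values use all 54 libraries. A library was marked only where the other sex's marker exceeded that of its label. Adult control male replicate 6 (Xist 53.3 CPM, Y-linked 186 CPM) and PAE-AAE male replicate 5 (30.8 and 203.5 CPM) were not marked. Both had more Xist than any other unmarked male library, and the cause was not tested. The labels name neither litters nor separate animals, so the p-values measure the spread between libraries, which may be in part technical. The tests treat libraries as independent. If libraries share a litter, the p-values of the prenatal ethanol comparisons may be too small. In bulk tissue, fewer cells of a type and less RNA per cell cannot be told apart.

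The 8 enzymes sit on connected cycles. Methionine is turned into S-adenosylmethionine, the methyl donor of most cellular methylation, and the by-product S-adenosylhomocysteine is cleaved to homocysteine. Homocysteine is either remethylated to methionine with a methyl group from folate, or drained into transsulfuration, where Cbs joins it with serine to cystathionine and Cth releases cysteine, a building block of glutathione and taurine. Cbs and Cth also make hydrogen sulfide, and in brain Cbs is known mainly from astrocytes.

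Sequence upstream of the start site is shown for Cbs, for Cth, which acts after it, and for Ahcy and Mat2a, the 2 most abundant of the 8. Promoter entries of RefSeq (assembly GRCr8) matched 7 of the 8 genes. The 250 bases before the start site are written 5′ to 3′ in the direction of the gene. Capitals mark the CCAAT box (CCAAT), the GC box (GGGCGG), the TATA box (TATAAA) and the E-box (CACGTG), searched on both strands, so ATTGG and CCGCCC are CCAAT and GC boxes on the opposite strand.
Cbs, chr20:9733926-9734175, minus strand: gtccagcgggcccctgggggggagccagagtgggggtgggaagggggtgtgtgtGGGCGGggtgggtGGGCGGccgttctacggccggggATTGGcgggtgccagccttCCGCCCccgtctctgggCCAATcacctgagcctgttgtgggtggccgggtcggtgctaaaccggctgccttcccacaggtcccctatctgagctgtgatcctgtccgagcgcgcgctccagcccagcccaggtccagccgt
Cth, chr2:249661067-249661316, minus strand: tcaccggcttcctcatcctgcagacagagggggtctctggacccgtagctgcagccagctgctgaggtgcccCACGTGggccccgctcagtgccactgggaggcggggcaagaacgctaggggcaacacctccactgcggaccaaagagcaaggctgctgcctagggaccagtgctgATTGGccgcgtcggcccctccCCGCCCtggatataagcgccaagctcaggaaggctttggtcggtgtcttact
Ahcy, chr3:164044563-164044812, minus strand: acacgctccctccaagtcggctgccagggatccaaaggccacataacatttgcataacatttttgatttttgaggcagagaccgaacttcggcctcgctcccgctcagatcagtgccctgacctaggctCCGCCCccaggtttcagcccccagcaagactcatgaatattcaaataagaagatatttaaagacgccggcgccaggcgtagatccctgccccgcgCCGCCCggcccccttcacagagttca
Mat2a, chr4:106053613-106053862, minus strand: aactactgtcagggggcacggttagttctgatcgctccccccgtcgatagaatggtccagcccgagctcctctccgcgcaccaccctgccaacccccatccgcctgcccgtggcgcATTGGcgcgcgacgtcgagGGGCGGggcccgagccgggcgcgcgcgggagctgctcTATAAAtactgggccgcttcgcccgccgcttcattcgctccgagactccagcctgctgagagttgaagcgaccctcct
The Cbs window held 2 CCAAT boxes and 3 GC boxes, with a GC content of 71.2% against a median of 51.2% over all promoters. Cth had 1 CCAAT box, 1 GC box and 1 E-box, Mat2a had 1 CCAAT box, 1 GC box and 1 TATA box, and Ahcy had 2 GC boxes. Among 33469 promoter windows of this length, 34.0% held a CCAAT box, 30.5% a GC box, 12.9% a TATA box and 5.59% an E-box. The GC box was the 1 motif found in all 4 windows, and a match is a description of the letters, not of a bound factor.

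Levels between the genes were compared in the authors' deposited FPKM, which divide by gene length. Mat2a, which makes S-adenosylmethionine outside the liver, was highest at 79.9 ± 7.72 FPKM (SD over the 54 libraries). Ahcy, the hydrolase that yields homocysteine, followed at 29.4 ± 2.46 FPKM, and Cbs at 25.5 ± 4.53 FPKM. Mat2a never fell below 60.3 FPKM and neither Ahcy nor Cbs rose above 37.9 FPKM, so Mat2a stood apart from both, while the ranges of Ahcy and Cbs overlapped. Mthfd1, the trifunctional folate enzyme of the cytosol, had 12.9 ± 1.25 FPKM, and Shmt2, the mitochondrial serine hydroxymethyltransferase, 9.82 ± 0.610 FPKM. The lowest were Mtr, the vitamin B12-dependent methionine synthase, at 3.83 ± 0.703 FPKM, Cth at 2.82 ± 0.613 FPKM and Shmt1, the cytosolic serine hydroxymethyltransferase, at 1.63 ± 0.273 FPKM. Neighbours in this order overlapped in range, except that every Mat2a value lay above every Ahcy value, every Cbs value above every Mthfd1 value and every Shmt2 value above every Mtr value. Within transsulfuration, the lowest Cbs value of 17.8 FPKM was above the highest Cth value of 4.89 FPKM.

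The genes also differed in how far they varied between libraries. Shmt2 was the steadiest, with a highest library 1.32 times its lowest in FPKM, and Ahcy spanned 1.51 times. Cbs spanned 2.001 times, and Shmt1, Cth and Mtr 2.21, 2.42 and 2.45 times. Over the 8 group means, the highest exceeded the lowest 1.57 times for Cbs, 1.43 times for Cth, 1.36 times for Mtr and at most 1.26 times for the other 5. Shmt1 was counted at 186 to 465 reads per library and Cth at 226 to 791, so their values carry more counting error than those of Cbs, at 2844 to 8167 reads. The libraries are not strand-specific, and Shmt2 overlaps Ndufa4l2 on the opposite strand while Mtr overlaps 2 antisense loci, LOC120097915 and LOC120097928, so reads of these neighbours cannot be told apart from theirs.

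**Figure D1:**
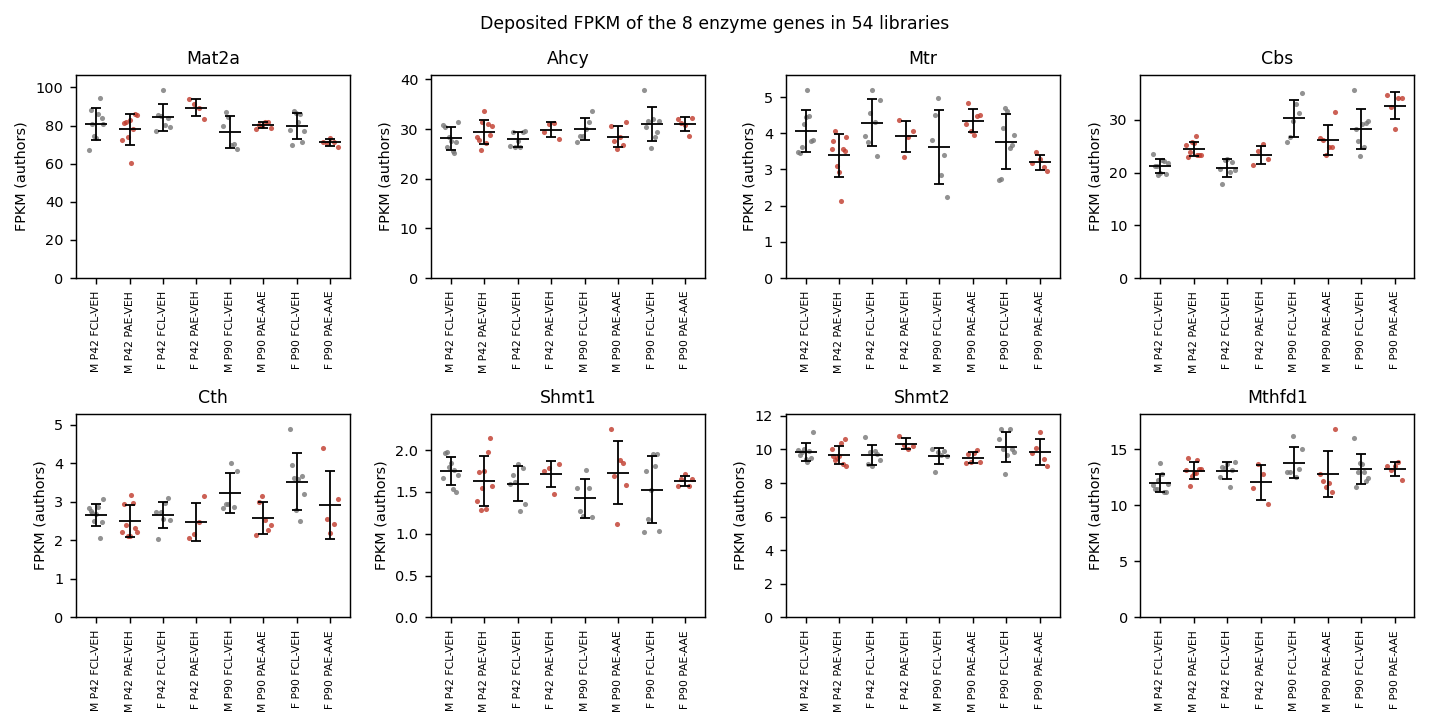
Deposited FPKM of the 8 enzyme genes (vertical axes, from 0) in the 54 libraries by group (horizontal axes, M male and F female), with gray for control and red for ethanol-exposed libraries and bars for mean ± SD. Mat2a lies above 60.3 FPKM in every library, Cbs is the gene whose group means spread most, and Shmt2 is nearly flat.

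Cbs (gene ID 24250, chromosome 20, 9709394 to 9733925, minus strand) was higher in adult than in adolescent control accumbens in both sexes. CPM are given with library sizes scaled by the trimmed mean of M-values (TMM). In control males at P42 Cbs ran from 49.4 over a median of 54.4 to 59.7 CPM, and in control males at P90 from 66.1 over 77.3 to 89.1 CPM. In control females it ran from 45.0 over 52.3 to 56.7 CPM at P42 and from 58.2 over 73.3 to 90.9 CPM at P90. All 6 adult males lay above all 9 adolescent males, and all 8 adult females above all 7 adolescent females. Cbs was picked from these comparisons, so this separation is a description. The share of all genes separated in this way was not counted. On the log2 scale the difference was 0.51 ± 0.08 (SE) in males, a fold of 1.43, and 0.45 ± 0.08 in females, a fold of 1.37. Without the 3 libraries of doubtful sex it was 0.51 and 0.45. The age differences of the 2 sexes differed by -0.06 ± 0.11 (female minus male), and no direction of that difference can be read.

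**Figure D2:**
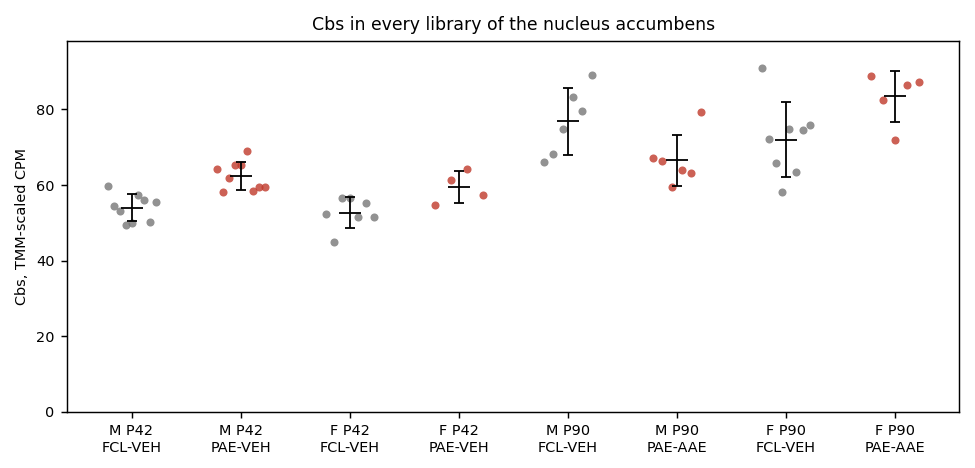
Cbs in TMM-scaled CPM (vertical axis, from 0) in each of the 54 libraries by group (horizontal axis), with gray for control and red for ethanol-exposed libraries and bars for mean ± SD. Control libraries at P90 lie above every control library of the same sex at P42, a description, as Cbs was picked from that comparison. Within P90 the PAE-AAE males lie mostly below and the PAE-AAE females mostly above the control median.

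Of the 8 enzymes, Cbs alone passed the threshold of 0.05 in the age comparison of either sex, by the edgeR quasi-likelihood test with Benjamini-Hochberg adjustment over all genes tested. In males 2.53% of 24065 genes tested were called, 1.93% higher and 0.603% lower at P90, and in females 0.42%, 0.224% higher and 0.195% lower. Since Cbs was picked from these comparisons, nothing is read from that count. Of the other 7, 0 passed by edgeR or voom in either sex, and DESeq2 called Mthfd1 in males. Over all 24065 genes DESeq2 called 807 higher and 359 lower in males. At an unadjusted p under 0.05, 2 of the 7 were higher in males, Cth and Mthfd1, and 2 in females, Cth and Ahcy, with 0 lower in either sex. Over all genes these shares were 10.9% higher and 6.69% lower in males, and 9.18% higher and 6.1% lower in females. The other 7 had a median log2 difference of -0.031 in males and 0.026 in females, beside -0.0013 and -0.0018 over all genes. In the difference between the sexes 0 of the 8 passed and 0 had an unadjusted p under 0.05, beside 0% and 8.5% of all genes.

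Cth (gene ID 24962, chromosome 2, 249634731 to 249661066, minus strand), the next enzyme after Cbs, stood higher on average in adult controls without passing the test. In males it ran from 3.69 over a median of 4.83 to 5.55 CPM at P42 and from 5.13 over 5.29 to 7.15 CPM at P90. In females it ran from 3.61 over 4.87 to 5.49 CPM at P42 and from 4.50 over 6.48 to 8.81 CPM at P90. Only 2 of 6 adult males but 6 of 8 adult females lay above every adolescent of their sex, and the groups overlapped in both. The log2 difference was 0.28 ± 0.13 in males (edgeR adjusted p = 0.238) and 0.42 ± 0.13 in females (edgeR adjusted p = 0.132), and without the 3 libraries of doubtful sex 0.29 and 0.45, neither past the threshold.

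Mthfd1 (gene ID 64300, chromosome 6, 100713510 to 100781013, plus strand), which interconverts folate one-carbon units, came nearest to a call among the other 7. In control males it ran from 39.3 over 41.4 to 47.7 CPM at P42 and from 43.8 over 46.3 to 56.2 CPM at P90, and all 6 adults lay above the adolescent median while the groups overlapped. The log2 difference of 0.21 ± 0.065 missed the threshold (edgeR adjusted p = 0.0763). It passed by DESeq2 (adjusted p = 0.0461) and, by edgeR, without male control replicate 5 at P42 or without male control replicate 1 or 2 at P90, so the call rests on the tool and on single libraries. In females Mthfd1 stood at 45.7 ± 2.46 CPM (SD, n = 7) at P42 and 46.5 ± 4.66 CPM (n = 8) at P90, a log2 difference of 0.03 ± 0.06 (edgeR adjusted p = 0.873). The difference between the sexes in this age effect was -0.18 ± 0.09 and did not pass (edgeR adjusted p = 0.588). Mthfd1 differed by 0.21 in males (edgeR adjusted p = 0.104) and -0.00056 in females without the 3 libraries of doubtful sex.

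None of the 3 methionine cycle enzymes passed between the ages in either sex by edgeR, DESeq2 or voom. Ahcy (gene ID 29443, chromosome 3, 164029338 to 164044562, minus strand) was 57.4 ± 4.84 CPM (SD, n = 9) and 61.2 ± 4.59 CPM (n = 6) in control males at P42 and P90, and 56.7 ± 2.91 CPM (n = 7) and 63.3 ± 7.11 CPM (n = 8) in control females. Its log2 differences were 0.10 ± 0.07 (edgeR adjusted p = 0.475) and 0.16 ± 0.07 (edgeR adjusted p = 0.252). Mat2a (gene ID 171347, chromosome 4, 106048043 to 106053612, minus strand) stood at 108.99 ± 11.7 and 103.2 ± 11.3 CPM in males and 112.8 ± 9.21 and 107.6 ± 9.14 CPM in females at P42 and P90. The SD within a group exceeded the distance between the ages in both sexes for Mat2a. Mtr (gene ID 81522, chromosome 17, 62911705 to 62996544, plus strand) scattered most in adult control males, from 15.04 over 24.4 to 33.1 CPM, against 23.3 over 25.7 to 35.3 CPM at P42. Its log2 differences of -0.15 ± 0.15 in males and -0.18 ± 0.14 in females were of the size of their errors. Without the 3 libraries of doubtful sex the differences in males and females were 0.11 and 0.15 for Ahcy, -0.06 and -0.08 for Mat2a and -0.16 and -0.18 for Mtr.

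Of the 2 serine hydroxymethyltransferases, which load folate with a one-carbon unit from serine, neither passed. Shmt1 (gene ID 287379, chromosome 10, 45968959 to 45990341, minus strand) was 4.12 ± 0.378 CPM (SD, n = 9) at P42 and 3.35 ± 0.544 CPM (n = 6) at P90 in control males, with 3 of the 6 adults below every adolescent. That log2 difference was -0.29 ± 0.145 (edgeR adjusted p = 0.289), and in females it was -0.05 ± 0.14 (edgeR adjusted p = 0.884). Shmt2 (gene ID 299857, chromosome 7, 65244247 to 65249580, minus strand) moved by -0.03 ± 0.06 in males and 0.08 ± 0.06 in females. Shmt1 differed by -0.31 in males and -0.10 in females without the 3 libraries of doubtful sex, and Shmt2 by -0.03 and 0.09.

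**Figure D3:**
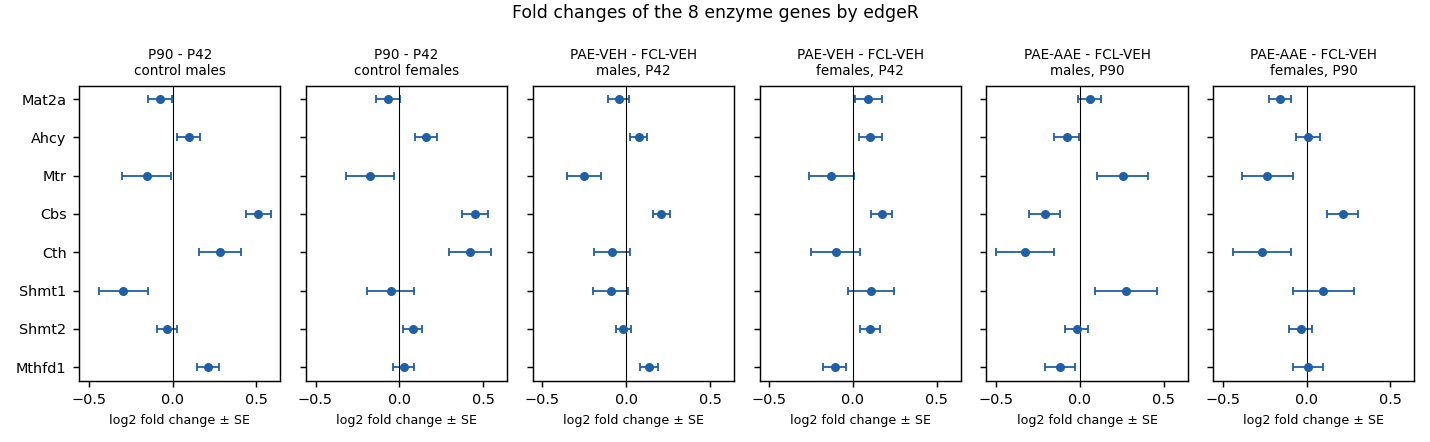
Log2 fold change ± SE by edgeR (horizontal axes) of the 8 enzyme genes (vertical axis) in 6 comparisons, 1 panel each. Cbs is farthest to the right in both age panels, at 0.51 and 0.45, and lies on opposite sides of 0 in males and females at P90, at -0.21 and 0.21.

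Neighbouring genes of the same metabolism were followed in 5 lists with 62 genes, of which 61 could be tested in controls (Mat1a fell under the count filter). In control males 5 of the 61 rose from P42 to P90 and 0 fell, beside 1.93% of all genes called higher and 0.603% called lower. In all 50 of the 61 were higher, with a median log2 difference of 0.18, beside 49.8% of all genes and a median of -0.0013. At an unadjusted p under 0.05, 25 were higher and 1 was lower (41.0% and 1.64% of the 61), beside 10.9% and 6.69% of all genes. In transsulfuration and cysteine use, Sqor, which oxidises hydrogen sulfide in mitochondria, rose by 0.83 ± 0.17 (edgeR adjusted p = 0.00863) and Cdo1, which starts the route from cysteine to taurine, by 0.39 ± 0.10 (edgeR adjusted p = 0.0396). The other 3 were Psat1, of serine synthesis, at 0.52 ± 0.09 (edgeR adjusted p = 0.00314), Mthfs, which returns 5-formyltetrahydrofolate to the folate pool, at 0.53 ± 0.10 (edgeR adjusted p = 0.00507), and Adk, which removes the adenosine split off by Ahcy, at 0.38 ± 0.09 (edgeR adjusted p = 0.0183). In vitamin B12 and B6 handling 0 of 10 passed by edgeR although 3 were higher at an unadjusted p under 0.05, and Mmut, a B12-dependent mitochondrial mutase, had the smallest p at 0.19 ± 0.06 (edgeR adjusted p = 0.109).

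In these 5 genes 4 to 6 of the 6 adults lay above every adolescent. The 5 had passed the age test in the same libraries, so their ranges are a description and add no support. The share of all genes separated in this way was not counted. Mthfs ran from 6.32 over 7.92 to 8.96 CPM at P42 and from 9.79 over 10.6 to 14.5 CPM at P90, with all 6 adults above every adolescent. Psat1 ran from 170.3 over 197.6 to 216.5 CPM and from 207.9 over 271.4 to 348.9 CPM, with 5 of 6 adults above every adolescent. Sqor ran from 2.43 over 3.29 to 4.16 CPM and from 2.97 over 5.90 to 8.07 CPM, with 1 adult inside the adolescent range. These 3 and Adk had at most 1 adult within the range of P42. Cdo1 overlapped most, from 25.2 over 31.5 to 34.2 CPM and from 32.4 over 39.7 to 51.9 CPM, with 4 of 6 adults above every adolescent. Adk ran from 49.4 over 53.3 to 55.3 CPM and from 50.3 over 67.1 to 87.4 CPM, with 5 of 6 above. Leaving out 1 library moved the count of 5 to 13 (without adult male control replicate 1), 10 (without replicate 2) or 3 (without replicate 4 or replicate 6), and without the 3 libraries of doubtful sex it was 4. With the astrocyte marker score as a covariate it was 0. Over all genes the calls then went from 465 higher and 145 lower to 9 and 28.

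In control females 0 of the 61 genes passed by edgeR, beside 0.224% of all genes called higher and 0.195% lower. At an unadjusted p under 0.05, 12 were higher and 1 was lower (19.7% and 1.64%), beside 9.18% and 6.1% of all genes. In all 40 of the 61 were higher, with a median of 0.056, beside 49.7% of all genes and -0.0018. DESeq2 called 1 of the 61, beside 185 higher and 164 lower of 24065 genes: Ahcyl2, an Ahcy-like protein, at 0.20 ± 0.06 (adjusted p = 0.04). voom called 0, and without the 3 libraries of doubtful sex edgeR called 0. For the genes called in males, adult females above every adolescent female were 6 of 8 for Mthfs and 5 of 8 for Cdo1. They were 3 of 8 for Sqor, 2 of 8 for Adk and 1 of 8 for Psat1, and the share of all genes separated in this way was not counted. In females Psat1 stood at 224.8 ± 18.9 CPM (SD, n = 7) at P42 and 227.9 ± 27.0 CPM (n = 8) at P90. The difference between the sexes in the age effect of Psat1 was -0.50 ± 0.13 (female minus male) and did not pass (edgeR adjusted p = 0.47), and 0% of all genes passed in that comparison.

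**Figure D4:**
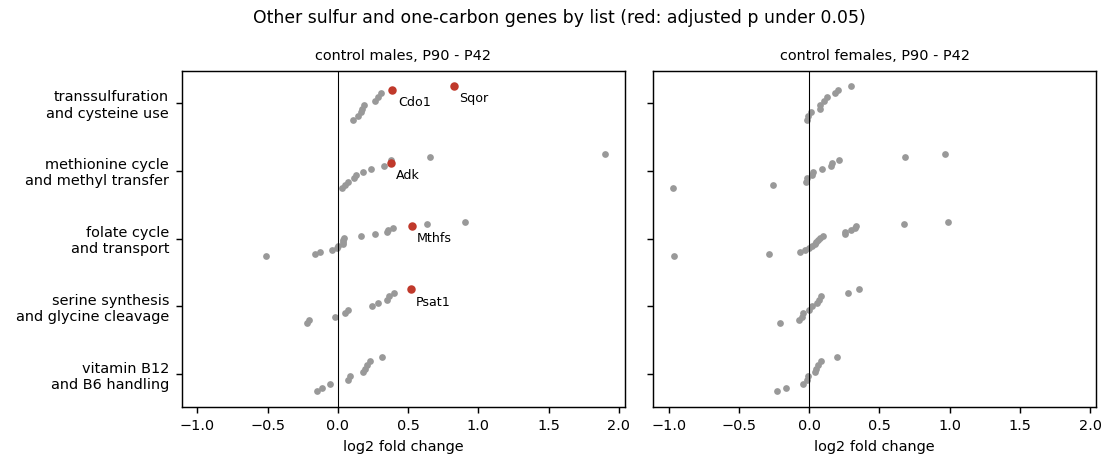
Log2 fold change from P42 to P90 (horizontal axes) of the 61 tested genes of 5 sulfur and one-carbon lists (vertical axes) in control males and control females, with 1 point a gene and red for adjusted p under 0.05. The 5 red points, Sqor, Cdo1, Adk, Mthfs and Psat1, are all in males and all to the right of 0.

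Prenatal ethanol without adolescent alcohol was compared at P42. In PAE-VEH males Cbs ran from 58.1 over 61.8 to 68.9 CPM, against 49.4 over 54.4 to 59.7 CPM in controls. All 9 exposed males lay above the control median and 5 of 9 above every control. In PAE-VEH females the 4 libraries held 54.6, 57.4, 61.3 and 64.3 CPM, against 45.0 over 52.3 to 56.7 CPM in controls, and 3 of 4 lay above every control. The log2 difference was 0.21 ± 0.05 in males and 0.17 ± 0.065 in females, with 0.19 ± 0.04 as the mean of the sexes. Without the 3 libraries of doubtful sex these values were 0.19, 0.16 and 0.18. The age and exposure comparisons share the P42 control libraries, so a low value in those libraries raises both differences.

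Of the 7 other enzymes 0 passed at P42 in either sex, in the mean of the sexes or in their difference, by edgeR, DESeq2 or voom, and 0% of 24741 genes tested were called by edgeR in each of these comparisons. At an unadjusted p under 0.05 males had 1 higher, Mthfd1, and 1 lower, Mtr, beside 5.95% and 3.02% of all genes. Females had 0 in either direction, beside 5.76% and 5.5%. The mean of the sexes had 1 higher, Ahcy, and 1 lower, Mtr, beside 6.35% and 4.56%, and the difference between the sexes 1 lower, Mthfd1, beside 4.33% higher and 6.25% lower. Mtr ran from 14.4 over 23.7 to 27.7 CPM in exposed males against 23.3 over 25.7 to 35.3 CPM in control males, a log2 difference of -0.25 ± 0.10 (edgeR adjusted p = 0.473). Mthfd1 was 46.1 ± 2.30 CPM (SD, n = 9) in exposed and 42.0 ± 2.81 CPM (n = 9) in control males, a log2 difference of 0.14 ± 0.05 (edgeR adjusted p = 0.468), with all 9 exposed libraries above the control median. In females Mthfd1 was 42.4 ± 5.52 CPM (n = 4) against 45.7 ± 2.46 CPM (n = 7), and the difference between the sexes, -0.25 ± 0.09, did not pass (edgeR adjusted p = 0.342). Cth, Mat2a, Ahcy, Shmt1 and Shmt2 differed by between -0.10 and 0.11 on the log2 scale in the 2 sexes. Without the 3 libraries of doubtful sex 0 of the 7 passed by edgeR, with Mtr at -0.24 and Mthfd1 at 0.13 in males and the Mthfd1 difference between the sexes at -0.27. The other 5 then differed by between -0.13 and 0.11.

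Among the 61 tested pathway genes 0 passed at P42 in either sex by edgeR, DESeq2 or voom, while at an unadjusted p under 0.05 males had 12 higher and 2 lower (19.7% and 3.28% of the 61, beside 5.95% and 3.02% of all genes). Females had 2 higher and 2 lower (3.28% each, beside 5.76% and 5.5%). In both sexes edgeR also called 0 without the 3 libraries of doubtful sex. Mthfs had the smallest p of the folate list in males, at a log2 difference of 0.37 ± 0.10 (edgeR adjusted p = 0.297), and Mat2b, the regulatory partner of Mat2a, that of the methionine list in females at 0.33 ± 0.14 (edgeR adjusted p = 0.362). The difference between the sexes for Psat1 was -0.42 ± 0.11, with an adjusted p of 0.213 by edgeR, 0.0394 by DESeq2 and 0.0499 by voom. In this comparison edgeR called 0 and the other tools 1 of the 61 genes. Over all 24741 genes DESeq2 called 38 higher and 34 lower, and voom 51 and 30.

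Prenatal ethanol followed by adolescent alcohol was compared at P90, a contrast not used to pick Cbs, although the adult controls are those of the age comparison. In control males Cbs was 66.1 over 77.3 to 89.1 CPM, and in PAE-AAE males 59.5 over 65.1 to 79.3 CPM. In control females it was 58.2 over 73.3 to 90.9 CPM, and the 5 PAE-AAE females held 71.97, 82.5, 86.6, 87.4 and 88.9 CPM. Exposed males were low, with 5 of 6 below the control median and 3 below every control, and exposed females high, with 4 of 5 above the control median and 0 above every control. Neither difference passed: -0.21 ± 0.09 on the log2 scale in males (edgeR adjusted p = 0.563) and 0.21 ± 0.09 in females (edgeR adjusted p = 0.9998). The difference between the sexes, 0.42 ± 0.13, did not pass either (edgeR adjusted p = 0.423), and the mean of the sexes was 0.0024 ± 0.066.

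Markers of several cell types also differed in mean level between the adult groups, and the medians of the astrocyte sums lay in the order of the Cbs medians. The 12 astrocyte markers were all detected, with none at 0, and summed to a median of 9950 CPM (range 8514 to 11008) in control males and 8835 CPM (7676 to 10224) in PAE-AAE males. In females the medians were 9773 CPM (8804 to 11661) in controls and 10593 CPM (10259 to 13178) in PAE-AAE. With the astrocyte score as a covariate, the Cbs differences at P90 were -0.03 ± 0.06 in males and 0.15 ± 0.06 in females, and the difference between the sexes 0.19 ± 0.09. In males 0 of the 12 astrocyte markers were higher in exposed adults and in females 10 of 12, with 0 past the threshold in either sex by edgeR. Choroid plexus markers were higher in 1 of 10 in exposed males and in 10 of 10 in exposed females, with mean scores of 1.18 in control and -0.39 in exposed males and -0.18 and 0.52 in females. Septal and pallidal scores were 0.22 and -0.26 in males and 0.014 and 0.30 in females, and microglial scores 0.29 and -0.12 in males and 0.10 and 0.06 in females. Endothelial markers were higher in 7 of 7 in exposed males (median log2 difference 0.33) and 4 of 7 in exposed females (0.05). Cortical markers were higher in 0 of 8 (-0.62) and 2 of 8 (-0.22), and myelin markers in 0 of 10 (-0.47) and 8 of 10 (0.03). Spiny neuron markers were higher in 9 of 12 (0.08) and 12 of 12 (0.23). With the choroid plexus, ependymal and cortical scores as covariates the Cbs differences were -0.12 ± 0.09 in males and 0.18 ± 0.08 in females. The part of the septal, microglial, endothelial, myelin and spiny neuron markers was not tested.

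Of the other 7 enzymes 0 passed at P90 by edgeR, DESeq2 or voom, and edgeR called 0% of 24018 genes in either sex, 0% in their difference and 0.00416% in their mean. Within a sex, Mat2a in females had the smallest unadjusted p of the 7, with 94.3 over 108.1 to 117.1 CPM in controls and 93.3, 95.9, 96.2, 96.5 and 99.1 CPM in the 5 exposed libraries, all below the control median. Its log2 difference was -0.16 ± 0.07 (edgeR adjusted p = 0.9998), and at an unadjusted p under 0.05 it was the 1 of the 7 in females, beside 1.67% of all genes higher and 2.56% lower. In males 0 of the 7 reached that level, beside 3.19% higher and 5.56% lower. In the difference between the sexes Mat2a and Mtr did, both lower, beside 5.31% higher and 5.28% lower, and in the mean of the sexes Cth did, lower, beside 1.42% higher and 1.84% lower. Mtr was 29.2 ± 2.05 CPM (SD, n = 6) in exposed and 24.4 ± 6.83 CPM (n = 6) in control males, but 21.5 ± 1.36 CPM (n = 5) in exposed and 25.4 ± 5.07 CPM (n = 8) in control females. The difference between the sexes for Mtr, -0.49 ± 0.22, did not pass (edgeR adjusted p = 0.438). Cth had a lower mean in exposed adults of both sexes, with log2 differences of -0.33 ± 0.17 in males (edgeR adjusted p = 0.6) and -0.27 ± 0.17 in females (edgeR adjusted p = 0.9998). Its lone high exposed female, replicate 1 at 7.96 CPM, stood against 3.94 to 5.55 CPM in the other 4, and without it the female difference was the lowest of the values that leave out 1 library, -0.47.

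Of the 61 tested pathway genes 0 passed at P90 in either sex by edgeR, DESeq2 or voom. At an unadjusted p under 0.05 males had 1 higher and 10 lower (1.64% and 16.4% of the 61, beside 3.19% and 5.56% of all genes). Females had 1 higher and 1 lower (1.64% each, beside 1.67% and 2.56%). The smallest p in males belonged to Psat1 at -0.37 ± 0.13 (edgeR adjusted p = 0.552), and in females to Psph, the last enzyme of serine synthesis, at 0.32 ± 0.13 (edgeR adjusted p = 0.9998). The median log2 difference over the 61 was -0.08 in males and 0.06 in females, beside 0.01 and -0.02 over all genes.

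Control males and females were compared at each age. At P42 Cbs differed by -0.03 ± 0.07 (female minus male, edgeR adjusted p = 0.989), -0.03 without the 3 libraries of doubtful sex and 0.019 with the choroid plexus, ependymal and cortical scores as covariates, and at P90 by -0.09 ± 0.08 (edgeR adjusted p = 0.868). Of the 8, 0 passed at either age by edgeR, DESeq2 or voom and 0 had an unadjusted p under 0.05, beside 0% of all genes called at P42 and 0.0499% at P90, and 6.08% and 5.85% at the unadjusted level. Of the 61 pathway genes none was called at either age by these 3 tools. At an unadjusted p under 0.05 by edgeR, 5 were higher and 2 lower in females at P42 (8.20% and 3.28% of the 61). At P90 0 were higher and 7 lower in females (0% and 11.5%). For all genes only the sum of higher and lower was counted, 6.08% at P42 and 5.85% at P90. The pathway shares by direction thus have no matching share of all genes.

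Libraries of 1 group were then compared with each other, a source of variation that the choice of the genes did not use. Log2 CPM had the mean of its group removed, and each p comes from 100000 permutations within groups, two-sided, adjusted over the 7 relations with Cbs. Cbs went with Ahcy (Pearson r = 0.51, permutation p = 0.00054, adjusted p = 0.00378; Spearman rho = 0.37, permutation p = 0.0106) and with Cth (r = 0.44, permutation p = 0.00325, adjusted p = 0.0114; rho = 0.38, permutation p = 0.00894). It ran opposite to Mtr (r = -0.43, permutation p = 0.0059, adjusted p = 0.0138; rho = -0.36, permutation p = 0.0146) and to Mat2a (r = -0.36, permutation p = 0.00977, adjusted p = 0.0171; rho = -0.38, permutation p = 0.0101). Mthfd1 (r = 0.31, adjusted permutation p = 0.0653), Shmt1 (r = -0.19) and Shmt2 (r = 0.10) did not pass. Among 14460 genes ranked by this r with Cbs, Ahcy stood at 907, Cth at 1634, Mat2a at 13126 and Mtr at 13635. Many other genes thus went with Cbs more closely than Ahcy or Cth. Without the 3 libraries of doubtful sex r was 0.51 for Ahcy, 0.46 for Cth, -0.43 for Mtr and -0.37 for Mat2a, with adjusted permutation p from 0.00707 to 0.0171, and the other 3 again did not pass.

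These 4 relations rest in part on 2 adult control females, replicate 1 with 90.9 CPM of Cbs and replicate 4 with 58.2 CPM. Without them r was 0.34 for Ahcy, 0.33 for Cth, -0.32 for Mtr and -0.35 for Mat2a, with adjusted permutation p from 0.0689 to 0.0791, so none passed. Within the 6 groups of at least 6 libraries, r with Ahcy ran from -0.48 to 0.91 and had the sign of the pooled value in 5, and for Cth, Mtr and Mat2a the sign was the pooled one in 4. Adult control female replicate 1 also had the highest microglial score of its group, 0.93, and the lowest medium spiny neuron score, -1.30 (log2, relative to the mean of all libraries).

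Scores of 10 cell type marker lists were set against Cbs in the same way, a set of relations added after the data had been seen. The astrocyte score had the closest relation with Cbs (r = 0.61, permutation p = 4e-05, adjusted p = 0.0004; rho = 0.57, permutation p = 7e-05). It held without the 2 adult control females replicates 1 and 4, which lie farthest from the median of Cbs with group means removed (r = 0.56, adjusted permutation p = 0.0023) and without the 3 libraries of doubtful sex (r = 0.66, adjusted permutation p = 0.0002), and had the same sign in 5 of 6 groups. The microglial score passed in all 54 libraries (r = 0.50, adjusted permutation p = 0.00805) and not without those 2 (r = 0.35, adjusted permutation p = 0.162). The other 8 lists, of myelin, oligodendrocyte precursors, endothelium, choroid plexus, ependyma, cortical and septal neighbours and spiny neurons, lay between r = -0.21 and 0.22 and did not pass.

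**Figure D5:**
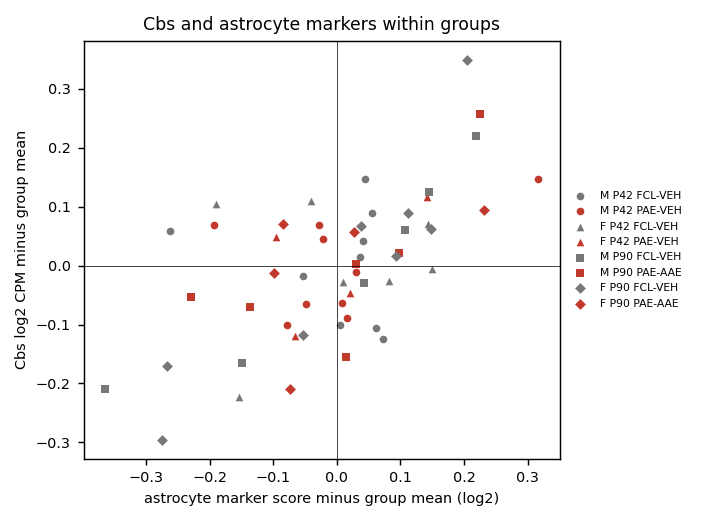
Cbs (vertical axis, log2 CPM) against the score of 12 astrocyte markers (horizontal axis, log2), each minus the mean of its group, with 1 point for each of the 54 libraries and shapes and colours for the 8 groups. Points rise from lower left to upper right with r = 0.61, and the 2 adult control females with the highest and lowest Cbs lie at the ends of the vertical axis.

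Markers of several cell types also stood at other levels in adult than in adolescent controls. Of the 12 astrocyte markers all were higher on average in adult control males and 9 in adult control females. In males S100b, a calcium-binding protein, and Aldoc, the brain aldolase, passed at 0.61 ± 0.12 (edgeR adjusted p = 0.00569) and 0.53 ± 0.12 (edgeR adjusted p = 0.0193), and in females 0 passed by edgeR. Their summed level had a median of 9003 CPM (range 7950 to 9462) in control males at P42 and 8964 CPM (8539 to 9567) in control females. Microglial markers were higher in 8 of 8 in males (1 past the threshold, median log2 difference 0.33) and in 8 of 8 in females (0 past, 0.19). Their summed medians at P42 and P90 were 233 CPM (158 to 270.4) and 295 CPM (183 to 358) in males, and 195 CPM (166 to 296) and 218.0 CPM (189 to 434) in females. Choroid plexus markers were higher in 10 of 10 in males (0 past, median 0.96) and in 1 of 10 in females (-0.50), and endothelial markers in 0 of 7 in either sex (-0.30 and -0.21). Cortical neuron markers were higher in 2 of 8 in males (-0.18) and 8 of 8 in females (1.06). Ependymal markers were higher in 7 of 8 in males (0.63) and 0 of 8 in females (-0.71), and myelin markers in 4 of 10 (-0.08) and 0 of 10 (-0.57). Oligodendrocyte precursor markers were higher in 2 of 6 in males (-0.12) and 1 of 6 in females (-0.09), and in each sex 1 passed as lower. With the astrocyte score as a covariate the age difference of Cbs was 0.32 ± 0.07 in males and 0.31 ± 0.07 in females, and with the choroid plexus, ependymal and cortical scores 0.46 ± 0.08 and 0.37 ± 0.08. The part of the other lists was not tested. At P42 all 12 markers were higher on average in PAE-VEH males, with 0 past the threshold by edgeR, and 6 of 12 in PAE-VEH females. With the covariate Cbs differed there by 0.18 ± 0.06 in males and 0.18 ± 0.07 in females. In PAE-VEH females choroid plexus markers were higher in 0 of 10 (median log2 difference -1.09), ependymal in 0 of 8 (-0.65), septal in 0 of 8 (-0.36) and myelin in 0 of 10 (-0.32). Spiny neuron markers were higher there in 12 of 12 (0.49) and cortical in 7 of 8 (0.70). In PAE-VEH males choroid plexus markers were higher in 3 of 10 (-0.46) and spiny neuron markers in 4 of 12 (-0.014). The part of the septal, myelin and spiny neuron markers was not tested.

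The genes whose pattern over the 54 libraries was most like that of Cbs were Adhfe1, an iron-containing alcohol dehydrogenase that oxidises 4-hydroxybutyrate, at r = 0.89, Aldoc at 0.86, Apoe, the lipid carrier of astrocytes, at 0.85, Aass, of lysine breakdown, at 0.84 and Prdx6, a peroxiredoxin, at 0.84. They are the top 5 of 14460 genes with a mean of at least 1 CPM, and these values describe libraries that share age, depth and tissue makeup. Ahcy ranked 969 and Cth 1911, while Mat2a, at -0.49, ranked 13669. With group means removed the top 5 were Enho at 0.73, Apoe at 0.72, Fmc1, Rps4x and Plaat3 at 0.71, so Apoe alone was shared between both rankings. Among the other members the closest pair was Mat2a with Mtr, at r = 0.60 with group means removed, given as a description.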

How the data were processed

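Bulk RNA was measured in 54 nucleus accumbens libraries. The authors deposited 1 table with raw read counts per gene and, in 54 further columns, FPKM; no count or FPKM column was left unused. Per the labels' protocols, cDNA was made with random hexamers and libraries were not strand-specific. The submitters' processing notes list fastp and HISAT2 2.0.5, while counter, annotation release and genome build are not stated there or in the labels. Start and end of all 8 genes are the same in RefSeq GRCr8. The 720 rows without a gene name took 0.271% to 0.412% of a library's counts and stayed out. No 2 libraries of a group agreed within sampling noise.

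Counts were tested with edgeR 4.0.16 in R 4.3.3 (TMM, default count filter by group, quasi-likelihood F test, two-sided, Benjamini-Hochberg over all genes, threshold 0.05). The 3 fits covered 30 control libraries (24065 genes), 29 adolescent (24741) and 25 adult (24018), with biological coefficients of variation of 35.4%, 34.2% and 39.6%, and gave 13 comparisons. Sample titles give the groups. Replicates are numbered by accession order, which pairs nothing, and the labels name 1 batch. A marker score is the mean over a list's genes of log2 CPM (prior count 2) centred per gene.

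The 8 genes, the pathway and marker lists and the tests were chosen with earlier results of these data known. Named were all 8 genes; per pathway list and comparison, up to 3 genes past the threshold or the 1 with the smallest p, of which the text gives a part; and the 5 genes most correlated with Cbs. Gamt was named after its values were seen. Alternatives were RLE size factors, no count filter, DESeq2 1.42.0, voom with quality weights (limma 3.58.1), all 54 libraries in 1 fit, no sex-discordant libraries, neighbouring tissue or astrocyte scores as covariates, and leaving out each library. The edgeR script was tested on simulated data. Of genes changed there by 0.5 on the log2 scale, it recovered 44% for age in males, 56% for P42 males and 31% for P90 males. Differences of that size were thus often missed, and smaller ones were not simulated. Without molecular identifiers, depth bears on counting error alone.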

Additional observations from a re-analysis of the deposited data

Results flagged for a closer look

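Within-group spread was screened in 64 sets, the 8 genes in each of the 8 groups, for a library whose distance to its nearest neighbour took an unusually large part of the group's range. Chance alone marks about 1 in 20 sets, and 4 of 64 were marked. Mat2a stood at 131.8 CPM in female control replicate 4 at P42, with the next library at 113.985 CPM and the lowest at 103.5 CPM. Shmt2 stood at 26.2 CPM in male control replicate 9 at P42, above 23.6 CPM in the next library. In male control replicate 2 at P90 Shmt2 was lowest at 20.5 CPM, below 22.7 CPM in the next. Mthfd1 stood at 58.4 CPM in PAE-AAE male replicate 6 at P90, above 44.8 CPM in the next library. That library also had the highest choroid plexus score of its group, 2.96, and the highest ependymal score, 1.65 (log2), and the part of these in the value was not tested. Cbs was marked in 0 of its 8 groups.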

How the results depend on the processing

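No paired analysis was possible because replicates are numbered by accession order and so pair no libraries. The age difference of Cbs kept its sign in every setting run, at 0.32 to 0.52 in males and 0.31 to 0.45 in females, or 0.47 to 0.57 and 0.40 to 0.49 with 1 library left out. Since Cbs was picked from the age and P42 comparisons, whether it passed in a setting is given for completeness and supports nothing. Of the 8 enzymes, the number past the threshold in the male age comparison went from 1 to 2 by DESeq2, to 0 with the astrocyte score, and to 1 to 2 with 1 library left out. In the mean of the sexes at P42 it went from 0 to 1 by DESeq2, the 1 being Cbs, which was picked from that comparison. The 5 pathway genes of the male age comparison became 9 by DESeq2, 9 with all 54 libraries in 1 fit, 0 with the astrocyte score, 0 with neighbouring tissue scores, and 3 to 13 with 1 library left out. Over all genes the male calls went from 465 higher and 145 lower to 807 and 359 by DESeq2 and 701 and 237 with all 54 libraries. They went to 9 and 28 with the astrocyte score and to 34 and 38 with neighbouring tissue scores. In females 0 became 1 by DESeq2 and 1 (Gamt, lower) with the astrocyte score, and 0 to 1 with 1 library left out, the 1 arising without adult female control replicate 4. Over all genes DESeq2 called 185 higher and 164 lower in females, and the astrocyte score setting 25 and 91. For the sex difference in the exposure effect at P42 the pathway count went from 0 to 1 by DESeq2 and 1 by voom, Psat1 in both. Over all genes these tools called 38 higher and 34 lower, and 51 and 30. Mthfd1 passed in males by DESeq2 (0.21).

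Within-group correlations without the 2 farthest libraries were 0.33 for Cth, -0.35 for Mat2a, 0.34 for Ahcy and -0.32 for Mtr, none past the threshold, and -0.10 for Shmt2, now negative. With neighbouring tissue scores also removed Mthfd1 passed at 0.41.

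Signs changed only among differences that had not passed. With the astrocyte score these were, for age in males, Cth -0.040, Mat2a 0.080, Ahcy -0.047 and Mtr 0.066, for age in females Mat2a 0.043 and Mthfd1 -0.0052, for P42 males Mat2a 0.058, for P90 males Mat2a -0.020 and Ahcy 0.024, and for P90 females Ahcy -0.028 and Mthfd1 -0.023. With neighbouring tissue scores they were, for age in females, Mat2a 0.019 and Mtr 0.038, for P42 females Mtr 0.0057, for P90 males Shmt2 0.0026, and for P90 females Ahcy -0.023 and Mthfd1 -0.032. Mthfd1 in the female age comparison was -0.022 by voom and -0.00056 without sex-discordant libraries. With 1 library left out, ranges crossing 0 were -0.042 to 0.012 for Shmt2 and age in males, -0.11 to 0.014 for Shmt1 and -0.019 to 0.052 for Mthfd1 and age in females, -0.035 to 0.0062 for Shmt2 in P42 males, -0.074 to 0.016 for the Cbs sex difference at P42, and -0.024 to 0.056 for Ahcy and -0.019 to 0.054 for Mthfd1 in P90 females. The cause of these changes was not tested. Of all alternative values, 607 were classed as the same as the main setting, 20 as reversed, 12 as moved, 5 as weaker and 2 as stronger. With 1 library left out 1231 were the same, 18 reversed, 8 moved and 3 stronger. A difference or correlation was the same if it kept its direction and, where an adjusted p was given, its side of the threshold. Counts of genes and ratios of levels have no direction and were the same if equal or close in size. Groups of 4 and 5 libraries limit the exposure comparisons in females.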
